A study of Homo sapiens with 4 samples.

Results

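Of the 3769 genes with an m7G peak in HepG2 cells, 109 (2.89%) carried 3 or more peaks in each of the 2 IP samples, and the peaks of these 109 genes are described here. They were chosen by counting the peaks listed under each gene name and keeping every peak of a gene that reached 3 in both lists. They held 392 of the 3355 peaks of replicate 1 (11.7%) and 456 of the 4747 peaks of replicate 2 (9.61%). HepG2 is an established human hepatocellular carcinoma line, and the cells were grown without any added treatment. The study sequenced poly(A) RNA of whole cells, selected on oligo(dT) beads, from 2 input samples that saw no antibody and 2 samples pulled down with an anti-m7G antibody from MBL, all as stranded mRNA libraries. What was analysed is the peak list that the authors deposited for each IP sample; the input samples were not analysed here. Whether the IP samples stem from separate cultures is not in the labels, and the read depth of the libraries is unknown.

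N7-methylguanosine, m7G, is best known as the methylated guanosine of the cap at the 5' end of every mRNA, where it serves translation initiation and protects the RNA from decay. It also occurs inside RNAs, in tRNA, rRNA and at internal positions of mRNA, where it is set by methyltransferases. In MeRIP-seq the RNA is fragmented, fragments bound by the antibody are sequenced, and stretches with more signal than the background are called as peaks, so that a long mRNA can give several peaks and a peak marks a stretch, not a base.

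Each peak came with the authors' own fold enrichment, a ratio whose scaling is not given in the sources used here, and with a p-value of their caller. The number of peaks chose the genes, and recurrence, position and fold come from the same lists, so all values below are descriptions without a test. Of the marker genes looked up in both lists, 5 of 12 hepatocyte markers had a peak (APOA1, APOB, SERPINA1, TF and AHSG), against 2 of 6 immune markers (CD68 and LYZ) and 1 of 6 endothelial and stellate markers (ACTA2). None of these markers is among the 109 genes, and a peak is not a measure of expression. A peak's place was measured from its midpoint, taken along its exon blocks, to the 5' end of the gene's span in the RefSeq annotation of GRCh38.p14, with introns counted; exon and UTR models were not used here. A gene's 5' end is its outermost annotated start, so peaks at an inner start count as lying within the gene.

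In 12 of the genes, a peak of each list covered the whole first 30 bases after a RefSeq start site and the peaks recurred as partners. These windows show the RefSeq sequence around such a start. In ZNF768 and IRF2BP2 it is an inner start, and in the others it is the 5' end of the gene's span. The 6 windows with the highest fold in replicate 1 are given below from 5' to 3' on the gene's strand (RefSeq, GRCh38.p14). The 30 bases before the annotated start are in lower case. The first 30 bases after it, which both peaks cover, are in capitals. In all 6 the peaks also reach before the start and cover some or all of the lower-case bases. They do so by 6 nt (SBF1, replicate 1) to 46 nt (PABPN1, replicate 2).
PABPN1: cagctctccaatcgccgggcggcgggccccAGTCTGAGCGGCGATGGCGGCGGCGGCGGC
SBF1: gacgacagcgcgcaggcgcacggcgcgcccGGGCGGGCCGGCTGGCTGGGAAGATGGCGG
TTYH3: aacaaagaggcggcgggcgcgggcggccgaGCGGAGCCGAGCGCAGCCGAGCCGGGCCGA
ZNF768: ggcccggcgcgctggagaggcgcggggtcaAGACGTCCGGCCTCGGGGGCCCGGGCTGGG
NR5A1: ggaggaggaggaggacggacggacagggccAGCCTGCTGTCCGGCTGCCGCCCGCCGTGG
PRRC2A: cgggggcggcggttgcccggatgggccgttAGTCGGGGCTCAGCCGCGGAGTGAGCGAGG
The window of PABPN1, the nuclear poly(A)-binding protein, lies at chr14:23321427-23321486 on the plus strand, and its peak had folds of 10.3 and 6.69 in replicates 1 and 2. SBF1, a myotubularin-related regulator of membrane traffic, has its window at chr22:50475006-50475065 on the minus strand with folds of 9.89 and 11.8. TTYH3, a membrane protein of the tweety family, follows at chr7:2631956-2632015 on the plus strand with folds of 7.31 and 5.49. For the zinc finger gene ZNF768 the window is chr16:30526537-30526596 on the minus strand, with folds of 7.14 and 6.71. The nuclear receptor gene NR5A1 has its window at chr9:124507370-124507429 on the minus strand with folds of 6.74 and 5.21, and PRRC2A, an RNA-binding protein, at chr6:31620685-31620744 on the plus strand with folds of 4.57 and 2.66. The capital stretches are 80% G and C in PABPN1, SBF1 and NR5A1, 83.3% in TTYH3 and ZNF768 and 73.3% in PRRC2A. The other 6 windows of this kind belong to CYB5R3, FN1, HYOU1, IRF2BP2, JUND and SF1, with folds from 1.23 for FN1 in replicate 2 to 4.68 for IRF2BP2 in replicate 2.

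The start regions of the whole group were rich in G and C. For 84 of the 109 genes the RefSeq promoter table held a window of 300 bases around the start (250 before, 50 after). Its median G and C share was 74.2% (interquartile range 67.7 to 78.0%) with a median of 37 CG dinucleotides. The 1480 matched other genes with peaks in both lists had 69.7% and 32, and all 27304 genes of the table had 58.3% and 13.5. The motif GGGCGG, searched on both strands, was present in 77 of the 84 windows (91.7%), in 80.9% of the windows of other genes with peaks in both lists and in 44.5% of all windows. CGGCGG, which can overlap GGGCGG, was present in 63 of the 84 (75%), against 62.2% and 29.2%. A match is a run of letters and says nothing of binding, and whether base composition moves with the number of peaks was not tested.

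The rule fixed the numbers of peaks, which are given as they stand. A total of 171 genes had 3 or more peaks in replicate 1 and 351 in replicate 2, so the 109 genes were 63.7% of the first and 31.1% of the second. Of the 109, 36 had exactly 3 peaks in each list, 27 had 4 or more in each and 12 had 5 or more in each. The number of peaks was equal in 47 genes, larger in replicate 1 in 16 and larger in replicate 2 in 46. Just outside the limit lay 41 genes with 3 or more peaks in replicate 1 and 2 in replicate 2, and 104 genes with the reverse. The median fold of the genes just outside was 3.24 and 3.41 in the 2 lists, and that of the 36 genes just inside, with 3 peaks each, was 3.16 and 3.29.

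Most peaks of these genes overlapped a peak of the other list, though only a minority matched it closely in extent. A peak was called recurring where a peak of the same gene and strand in the other list shared with it 50% or more of the length of the shorter one, counted along exon blocks. In replicate 1, 320 of 392 peaks recurred (81.6%, 95% Wilson interval 77.5 to 85.2%), and in replicate 2, 313 of 456 (68.6%, 64.2 to 72.7%). Over all peaks the shares were 65.1% and 45.4%, but these include genes with a peak in only 1 list. For the other 1838 genes with peaks in both lists the shares were 78.7% of 2366 peaks (77.0 to 80.3%) and 66.7% of 2760 peaks (65.0 to 68.5%), close to those of the 109. The intervals cover counting error only, and peaks of 1 gene are not independent. The mean of the 2 lists was 75.1% ± 9.19 (SD, n = 2). When the overlap had to reach 80% of both peaks, the shares of the 109 genes were 25.5% and 21.9%, with a mean of 23.7%.

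Among genes with peaks in both lists, a smaller share of replicate 2 peaks recurred in genes with more peaks. In replicate 1 the shares beyond 1 peak had no such order. Among all genes with peaks in both lists, 84.8% of the single peaks of replicate 1 recurred, then 72.9%, 73.2% and 73.2% for genes with 2, 3 and 4 peaks, 83.6% with 5, 76.7% with 6 and 71.4% with 7 or more. In replicate 2 the shares were 85.1%, 63.4%, 54.3%, 48.5% and 46.4% for genes with 1 to 5 peaks, 41.7% with 6 and 47.1% with 7 or more. These shares cover all genes with a peak in the other list, a condition that leaves out peaks that could not recur. Over all genes of replicate 2 the decline was absent up to 4 peaks, with 45.1%, 47.5%, 43.9% and 46.5%. With 5, 6 and 7 or more peaks the shares were 39.2%, 38.9% and 47.1%. Over all genes of replicate 1 they were 61.1%, 68.1%, 72.6%, 70.7%, 83.6%, 76.7% and 71.4%. For the 36 genes with exactly 3 in each list the shares were 88.0% and 83.3%, and just outside the limit they were 73.6% and 55.6%. Genes just outside have unequal numbers of peaks in the 2 lists by definition. This limits how many of their peaks can each find a separate partner, so these shares cannot be compared directly.

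**Figure D1:**
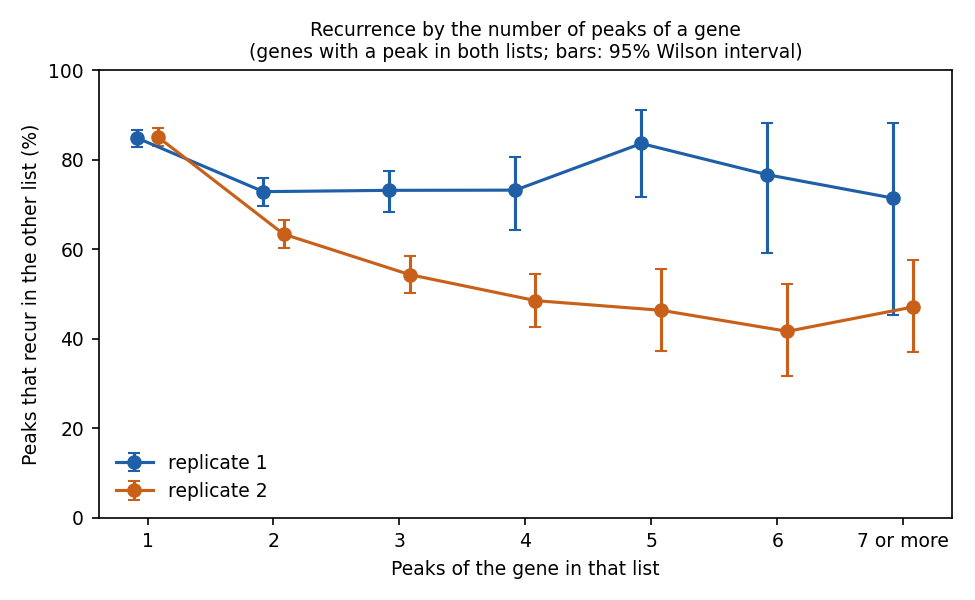
Share of peaks that recur in the other list (%) against the number of peaks of the gene in the list counted, for genes with a peak in both lists; points are shares and bars 95% Wilson intervals. Replicate 1 stays between 71.4% and 84.8%, while replicate 2 goes from 85.1% for single peaks to 41.7% for genes with 6 peaks.

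Within a gene, the peak of smallest p came back more often than the peak of largest p. The peak with the smallest p recurred in 104 of the 109 genes in replicate 1 (95.4%) and in 101 in replicate 2 (92.7%). The peak with the largest p recurred in 67 genes (61.5%) and 54 genes (49.5%). Recurring peaks were longer, with a median of 209 nt against 120 nt for the others in replicate 1 and 240 nt against 121 nt in replicate 2. Their median −log10 p was 7.95 against 4.18 in replicate 1 and 9.61 against 4.69 in replicate 2. Their median fold differed little, 2.84 against 2.38 in replicate 1 and 3.05 in both kinds in replicate 2. The part of length in recurrence was not tested.

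Every peak recurred in both lists in 29 genes, and no peak did in 1 gene, RAI1. All replicate 1 peaks recurred in 58 genes and all replicate 2 peaks in 36. At least 2 peaks of replicate 1 recurred in 103 genes, and at least 3 in 77. The rule asks for 3 or more peaks in each list, which itself makes several recurring peaks in a gene more likely. Of the 29 genes, 22 had exactly 3 peaks in each list, such as the transcription factor gene JUND, the receptor gene ADRA2C and the glycolytic enzyme gene ALDOA. The other 7 were COL18A1, EEF2, HMGA1, NOTUM, RAB5C, SF1 and SOX12.

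The peaks of these genes lay mainly away from the 5' end. With the span cut into 3 equal parts, 24.1% of the replicate 1 peaks inside it had their midpoint in the first part, 20.3% in the middle part and 55.6% in the last part. In replicate 2 the shares were 22.2%, 21.3% and 56.5%. Other genes with peaks in both lists had 53.9%, 8.96% and 37.2% in replicate 1 and 48.8%, 9.78% and 41.4% in replicate 2. Per peak, the 109 genes thus had larger shares in the middle and last part in both lists than other genes. The rule of 3 or more peaks adds further peaks for 1 near the start, which can lower the share of the first part. Shares per gene were not counted for these parts.

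**Figure D2:**
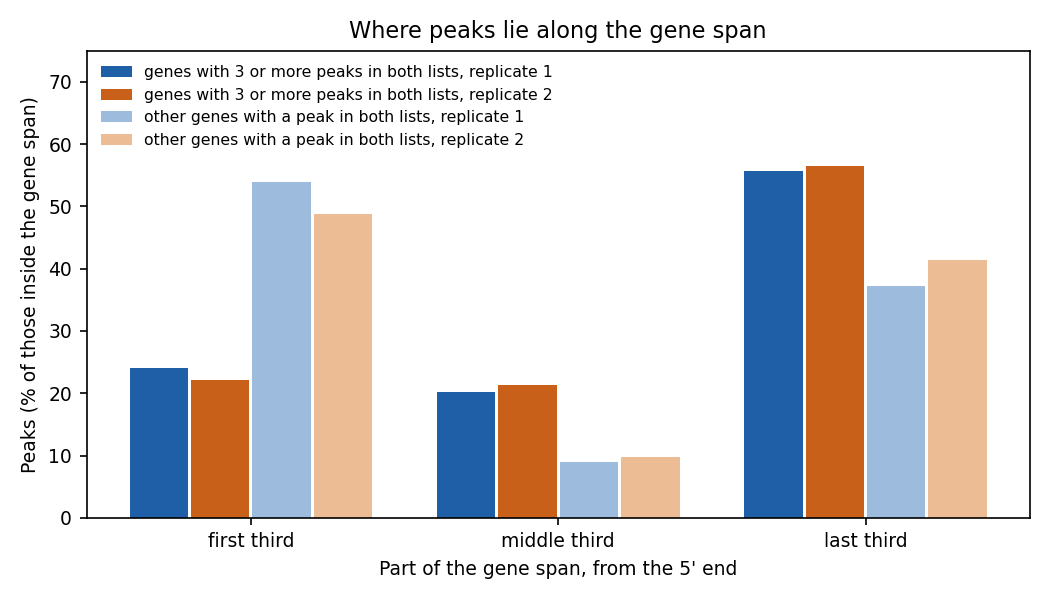
Share of peaks (% of those inside the gene span) in the first, middle and last of 3 equal parts of the span, for the 109 genes and for other genes with a peak in both lists, by replicate. The 109 genes have 55.6% and 56.5% in the last part, and other genes 37.2% and 41.4%.

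Within 200 nt of the 5' end lay 34 of the 392 peaks of replicate 1 (8.67%) and 29 of the 456 of replicate 2 (6.36%), against 27.4% and 21.7% of all peaks. The mean of the lists, 7.52%, was 12.9% with a window of 500 nt and 13.0% where any base of the peak could lie in the window. A gene with many peaks has several further peaks for 1 at the start, so the share of genes is the closer comparison. Of the 109 genes, 34 (31.2%, Wilson interval 23.3 to 40.4%) had a 5'-end peak in replicate 1 and 29 (26.6%, 19.2 to 35.6%) in replicate 2. Of other genes with peaks in both lists, 38.2% (36.0 to 40.4%) and 36.0% (33.8 to 38.2%) had one. In 24 of the 109 genes a peak had its midpoint in this window in both lists. Among them were CAPZB, DNM2, FN1, HYOU1, KIF1C, MTSS2, NR5A1, PRRC2A, SBF1, SF1, SLC7A5, TTYH3 and ZBTB7A. A spliced peak that reaches the start can have its midpoint beyond an intron and is then not counted. Recurring pairs in C3 (midpoints at 132 and 1259 nt in replicates 1 and 2) and RASL10B (185 and 3433 nt) are examples.

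Below, the strongest peak of a gene is the one with the highest fold. Where a 5'-end peak was called, its fold was often the highest of the gene, in 23 of the 34 genes of replicate 1 and in 15 of the 29 of replicate 2. Peaks at the 5' end had a median fold of 4.58 and 3.75, and the remaining peaks 2.62 and 2.99. At the 3' end, 14 peaks of replicate 1 (3.57%) and 16 of replicate 2 (3.51%) lay within 200 nt, against 3.43% and 3.48% of all peaks, so the shares per peak were alike. They came from 12.8% and 14.7% of the 109 genes, against 4.25% and 4.91% of other genes with peaks in both lists, a share per gene that the rule of 3 or more peaks raises. By midpoint, peaks at both ends were found in 5 genes in replicate 1 (BTBD2, CAPZB, DNM2, NR5A1 and RAB5C) and in 3 in replicate 2 (CAPZB, DNM2 and PRRC2A). In RAB5C a spliced peak of replicate 2 also reached the 5' end, but its midpoint lay 23269 nt away.

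The outermost peaks of a gene were usually far apart. The distance between the outermost midpoints had a median of 75.6% of the gene span in replicate 1 (quartiles 32.3 and 92.3%) and 67.1% in replicate 2 (quartiles 41.6 and 90.3%), which is 9.83 kb and 11.1 kb. It was over 50% of the span in 67 and 70 genes and over 90% in 31 and 29. It was under 10% in 10 genes in replicate 1, namely ARID1A, CASTOR2, FBXL19, NFIX, RERE, SCAF1, SHANK3, TMEM184A, ZFPM1 and ZNF512B, of which 8 spread over more than 10% in replicate 2. Only CASTOR2 and NFIX were under 10% in both lists. Neighbouring midpoints were a median of 2146 nt apart in replicate 1 and 1634 nt in replicate 2, and 35.7% and 36.9% of them lay under 1000 nt apart. With recurring peaks alone the median spread was 55.3% of the span, as the mean of the lists, and with single-block peaks alone it was 33.9%.

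**Figure D3:**
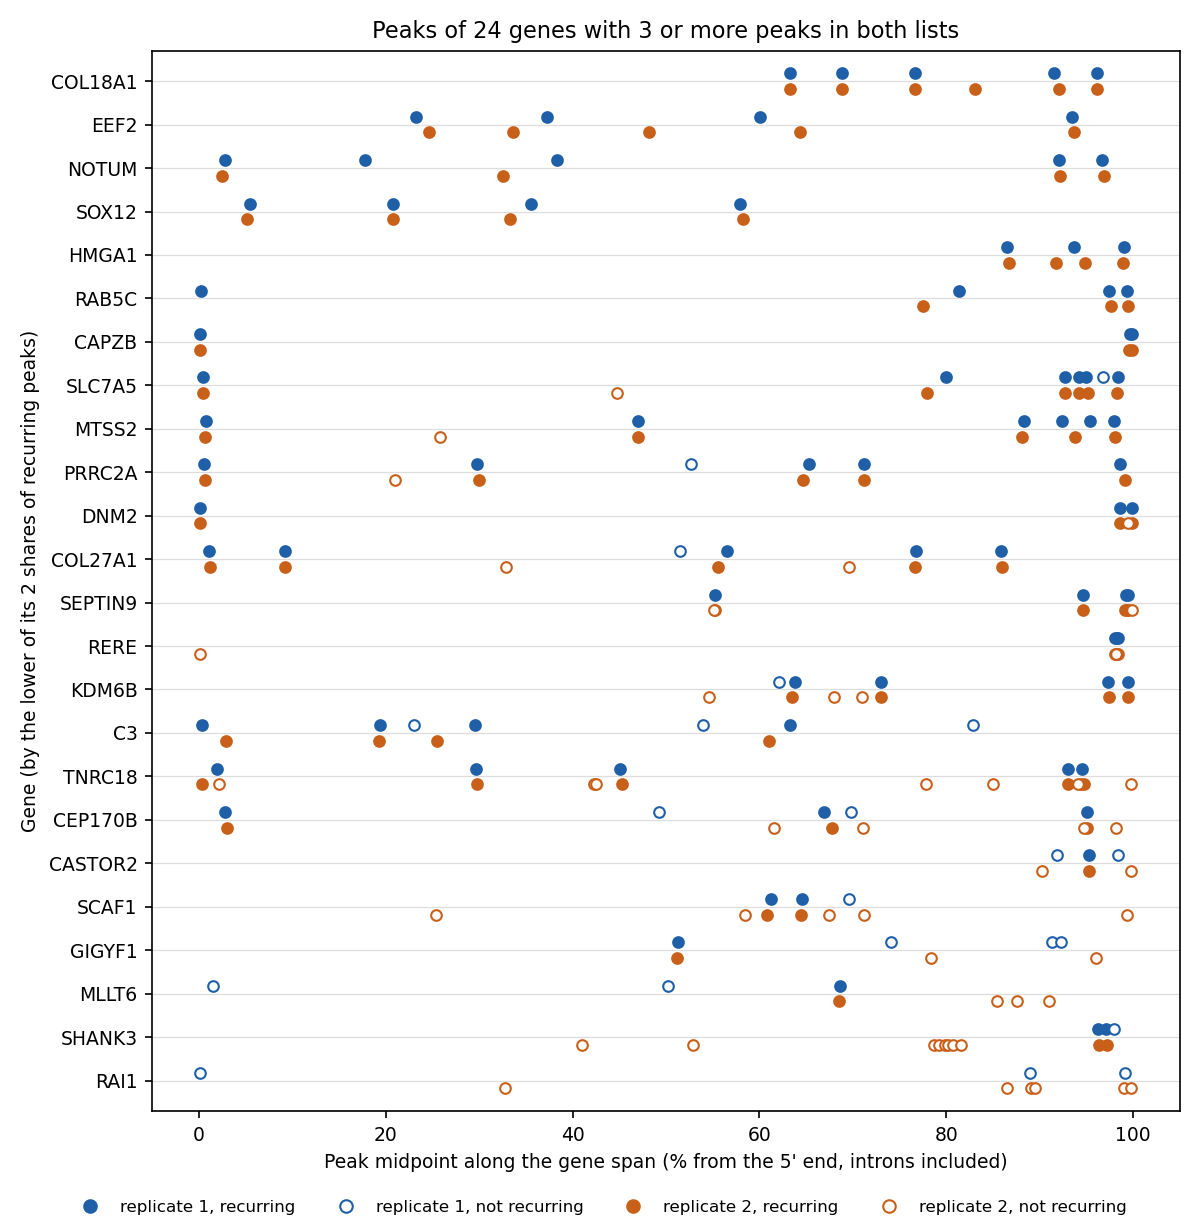
Midpoint of each peak along the gene span (% from the 5' end, introns included) for the 24 genes described peak by peak, ordered by the lower of the 2 shares of recurring peaks; filled circles recur in the other list and open circles do not. COL18A1 and EEF2 at the top have filled circles only, and RAI1 at the bottom has open circles only.

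Of the 12 genes with the most peaks, 11 are described peak by peak. TNRC18, a large nuclear protein with a BAH domain (chr7:5306811-5423834, minus strand), had 5 peaks in replicate 1 and 13 in replicate 2. All 5 of replicate 1 recurred, with folds of 8.24, 2.25, 3.06, 4.07 and 17.3 from the 5' to the 3' end. In replicate 2, 6 of the 13 recurred, and the other 7 lay among them along the whole gene with folds from 2.32 to 4.81. The strongest peak of replicate 1, at 94.5% of the span, overlapped 2 shorter peaks of replicate 2 with folds of 4.33 and 9.94.

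SLC7A5, the light chain of a transporter of large neutral amino acids (chr16:87830023-87869507, minus strand), had 7 peaks in each list, and 6 of each recurred. The peak 163 nt from the 5' end had the same start and end in both lists and folds of 3.26 and 2.82. A cluster of 4 recurring peaks lay between 92.7% and 98.4% of the span, with folds from 1.36 to 2.22 in replicate 1 and from 1.29 to 2.70 in replicate 2. The 1 peak of each list that did not recur lay at 96.8% of the span in replicate 1, with the lowest fold there, 1.23, and at 44.8% in replicate 2, with a fold of 1.68.

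COL27A1, a chain of a fibrillar collagen (chr9:114154098-114312511, plus strand), had 6 and 7 peaks, of which 5 recurred in each list. Folds in replicate 1 were 8.48 at 1.1% of the span, 1.73 at 9.2%, 3.56 at 56.5%, 4.07 at 76.8% and 6.32 at 85.9% for the recurring peaks. In replicate 2 the partners had 7.38, 1.90, 5.75, 6.43 and 12.5. All other recurring peaks thus had higher folds than the peak at 9.2% in both lists. The last peak was spliced over 8 blocks in replicate 1 and 12 in replicate 2. The peaks that did not recur had folds of 2.12 in replicate 1 and 2.13 and 1.81 in replicate 2.

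COL18A1, the chain of collagen XVIII from which endostatin is cut (chr21:45405165-45513720, plus strand), had no peak before 63.3% of the span in either list. All 5 peaks of replicate 1 and 6 of replicate 2 recurred. Both lists had the highest fold, 2.93 and 3.02, at 76.7% of the span, in a peak joined from 10 blocks in each. The long peak of replicate 1 at 91.5% was called as 2 peaks in replicate 2, at 83.1% and 92.1%, with folds of 1.63 and 1.86 against 1.60.

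KDM6B, a demethylase of histone H3 lysine residues (chr17:7834217-7854796, plus strand), had 5 and 7 peaks, of which 4 recurred in each list. Its last peak, 101 nt from the 3' end, had the highest fold in both, 6.55 and 6.33. The value in replicate 2 is also the commonest fold of that whole list, found at 196 peaks. The remaining recurring peaks had folds of 3.35, 2.26 and 1.91 in replicate 1 and 3.93, 2.73 and 2.69 in replicate 2. No peak lay before 54.6% of the span.

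CEP170B, a relative of a centrosomal protein (chr14:104864513-104896747, plus strand), had 5 and 7 peaks with 3 recurring in each. Its first peak differed most between the lists, with a fold of 17.3 in replicate 1 and 3.87 in replicate 2, at 905 and 979 nt from the 5' end. The recurring peak at 66.9% went the other way, with 4.33 and 6.97, and was the strongest of replicate 2.

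PRRC2A (chr6:31620715-31637771, plus strand) and MTSS2, a protein that binds actin and curved membranes (chr16:70661204-70686053, minus strand), had 6 peaks in each list that ran from the 5' to the 3' end. In PRRC2A the 5'-end peak was the strongest in replicate 1 with a fold of 4.57, while in replicate 2 it had 2.66 and the peak at 71.2% had 3.91. In MTSS2 the strongest peak lay at 92.4% of the span in replicate 1 and 93.8% in replicate 2, with folds of 4.60 and 4.05, and the 5'-end peak had 1.97 and 2.30. The replicate 2 peak of 1110 nt there covered 2 peaks of replicate 1.

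C3, the central complement component made by the liver (chr19:6677704-6720650, minus strand), had 7 peaks in replicate 1 and 4 in replicate 2, all with low folds. They ranged from 1.10 to 1.41 in replicate 1 and from 1.13 to 1.35 in replicate 2. All 4 peaks of replicate 2 recurred, and so did 4 of replicate 1; the 3 others had folds of 1.11, 1.17 and 1.19. SEPTIN9, a filament-forming GTPase of the septin family (chr17:77281499-77500596, plus strand), was similar, with folds from 1.39 to 1.61 at 4 peaks of replicate 1 and from 1.17 to 1.75 at 7 of replicate 2. All 4 recurred, and no peak lay before 55.1% of its span.

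SHANK3, a scaffold protein of the postsynaptic density (chr22:50672823-50733212, plus strand), had 3 peaks in replicate 1 and 10 in replicate 2. The 3 of replicate 1 lay between 96.3% and 98.0% of the span, and 2 recurred, with folds of 4.64 and 2.78 against 4.13 and 4.92. In replicate 2 a cluster of 6 peaks with folds from 2.40 to 4.74 lay between 78.7% and 81.6%, where replicate 1 had none. A further pair of replicate 2 peaks lay at 41.0% and 52.9% with folds of 6.85 and 3.92.

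Of the 6 genes whose peaks recurred most, COL18A1 is described above. EEF2, the translation elongation factor (chr19:3976056-3985463, minus strand), had folds of 1.16, 1.75, 1.09 and 1.42 at its 4 peaks of replicate 1 and of 1.16, 1.77, 1.22, 1.33 and 1.45 at its 5 of replicate 2. These are among the lowest folds of the group, yet the second peak had a −log10 p of 81.2 in replicate 1 and 108 in replicate 2. A single peak of replicate 1, of 6 blocks, corresponded to the second and the third of replicate 2.

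NOTUM, a secreted enzyme that inactivates Wnt proteins (chr17:81952507-81961187, minus strand), had its strongest peak near the 5' end, 246 nt away in replicate 1 and 216 nt in replicate 2. Its folds were 4.49 and 5.19 and its −log10 p 136 and 137. The other peaks had folds from 1.29 to 1.78 in replicate 1 and from 1.34 to 2.60 in replicate 2. SOX12, a transcription factor of the SoxC group (chr20:325552-330224, plus strand), had 4 peaks in each list within 60% of the span, all recurring. Its second peak, from 326258 to 326795 in both lists, had folds of 6.51 and 11.3, and the other 3 had 2.52, 2.41 and 1.53 in replicate 1 and 2.52, 2.76 and 1.91 in replicate 2.

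HMGA1, an architectural chromatin protein (chr6:34236873-34246231, plus strand), had all its peaks after 86.5% of the span. Its folds were 2.24, 1.54 and 1.48 in replicate 1 and 1.90, 1.33, 1.36 and 1.45 in replicate 2, where the second peak of replicate 1 was called as 2. RAB5C, a GTPase of early endosomes (chr17:42124979-42154989, minus strand), showed the reverse. Its first 2 peaks of replicate 1, at 0.2% and 81.4% of the span with folds of 4.59 and 3.27, were covered by 1 spliced peak of replicate 2 with a fold of 8.43. Its last 2 peaks had folds of 1.42 and 5.03 in replicate 1 and 1.64 and 3.92 in replicate 2.

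In the 6 genes whose peaks recurred least, the peaks without a partner were 60 to 360 nt long. RAI1, a nuclear regulator of transcription (chr17:17681458-17811453, plus strand), had 3 peaks in replicate 1 with folds of 4.59, 6.18 and 5.30 and 6 in replicate 2 with folds from 3.16 to 4.74, and none overlapped. Their −log10 p ran from 2.76 to 4.85, under the group's medians of 6.83 and 6.96. Peaks of the 2 lists nevertheless lay close to each other near 89.0% and 99.1% of the span, from 17797087 to 17797147 in replicate 1 and from 17797297 to 17797357 in replicate 2 for the first of these places.

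GIGYF1, a protein of translational repression (chr7:100679507-100694250, minus strand), and MLLT6, a chromatin-associated protein (chr17:38705273-38729795, plus strand), had 1 recurring peak each. In GIGYF1 it lay at 51.3% of the span with folds of 4.77 and 7.12, the highest of the gene in both lists. In MLLT6 it lay at 68.6% with folds of 7.23 and 7.31, again the highest. The other peaks of MLLT6 lay before it in replicate 1, at 1.5% and 50.2%, and after it in replicate 2, between 85.4% and 91.0%.

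SCAF1, an SR-related protein that binds RNA polymerase II (chr19:49640465-49658642, plus strand), had 3 and 7 peaks with 2 recurring, at 61.3% and 64.6% of the span. Their folds were 4.79 and 6.16 in replicate 1 and 4.16 and 4.38 in replicate 2, whereas the highest fold of replicate 2, 7.23, lay at a peak that did not recur. CASTOR2, a relative of the arginine sensor of mTORC1 (chr7:74964705-75031528, plus strand), had 3 peaks in each list after 90.3% of its span. The peak at 95.3% had the same start and end in both lists and folds of 3.96 and 4.68. CASTOR2 lies in a duplicated region, and reads of its near-identical copies cannot be told apart here, which also holds for SBF1 and its pseudogene.

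The widest distances between outermost peaks, as the mean of the 2 lists, belonged to RERE, CAPZB, COL27A1, DNM2, TNRC18 and RAI1. RERE, a corepressor of the atrophin family (chr1:8352404-8817640, minus strand), reached 457 kb in replicate 2 but 1.37 kb in replicate 1, since the peak 360 nt from the 5' end was called in replicate 2 only, with a fold of 3.39. Its 3 recurring peaks lay between 98.1% and 98.4% of the span, with folds of 3.06, 4.29 and 5.10 in replicate 1 and 3.16, 2.99 and 3.41 in replicate 2. CAPZB, the beta subunit of the actin capping protein (chr1:19338775-19485539, minus strand), spread over 146 kb in both lists, with a peak 90 nt from the 5' end and 2 peaks in the last 544 nt. Its folds were 4.48, 1.44 and 3.87 in replicate 1 and 3.44, 1.87 and 2.89 in replicate 2, high at both ends and lower at the middle peak. DNM2, the GTPase dynamin 2 that cuts off endocytic vesicles (chr19:10718079-10831903, plus strand), had the same layout over 114 kb. Its first peak had a fold of 5.30 in replicate 1 and 38.0 in replicate 2, the largest difference of any recurring pair of the 109 genes.

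**Figure D4:**
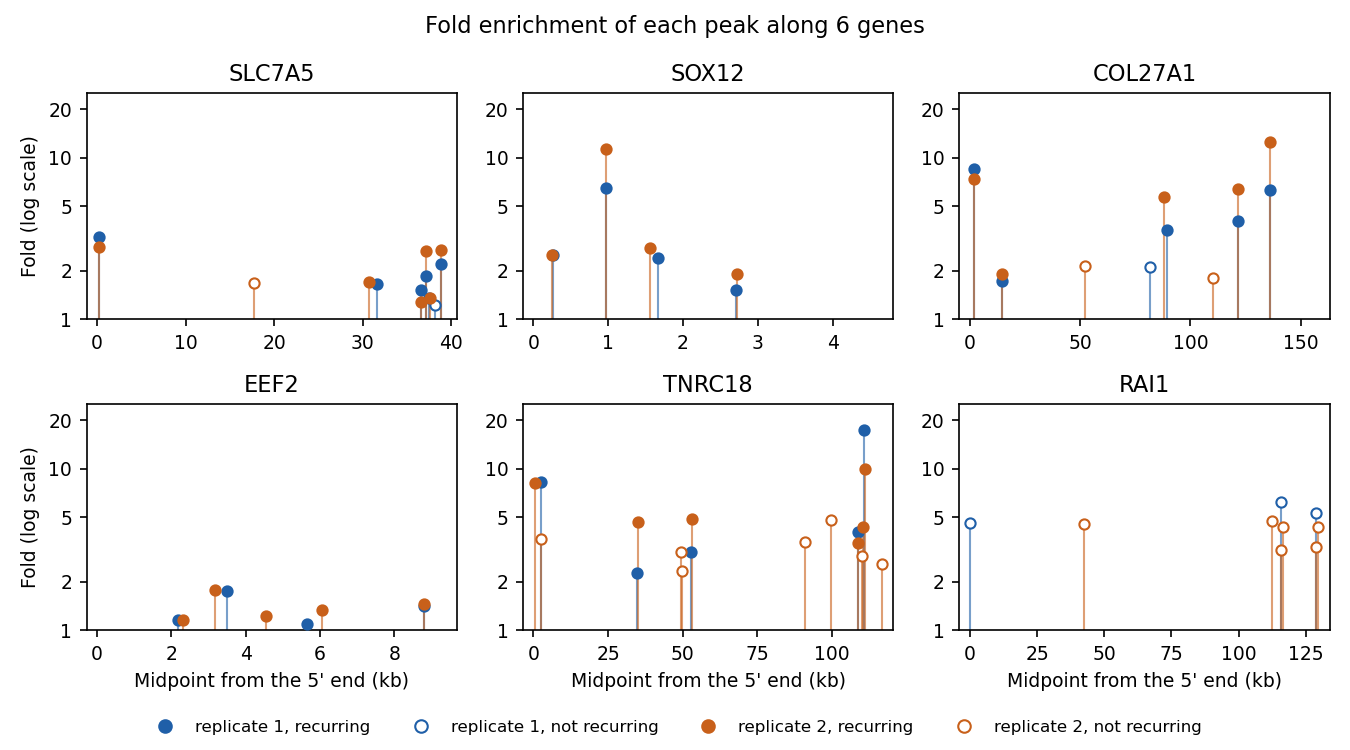
Fold enrichment (log scale) of each peak against its midpoint (kb from the 5' end) in SLC7A5, SOX12, COL27A1, EEF2, TNRC18 and RAI1; filled circles recur in the other list. SOX12 peaks at 6.51 and 11.3 at the same place in both lists, EEF2 stays under 2, and the RAI1 circles are all open.

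Fold enrichment in the 109 genes was lower than over all peaks. Replicate 1 had a median of 2.76, with quartiles of 1.74 and 4.54, and replicate 2 a median of 3.05, with quartiles of 1.91 and 4.67, against 3.71 and 3.87 over each whole list. The peaks were longer than in the whole lists, with medians of 180 and 209 nt against 151 nt in both. Their median −log10 p was 6.83 and 6.96 against 5.50 and 5.07. They were spliced over more than 1 block in 31.4% and 33.3% of cases, against 26.4% and 28.2%. The whole lists include genes with a peak in only 1 list. Other genes with peaks in both lists had median folds of 3.71 and 3.80 and median lengths of 179 and 180 nt. Peak length in replicate 1 was thus alike in these genes and the 109. The other genes had a median −log10 p of 5.93 and 5.80, and 26.2% and 29.3% of their peaks were spliced. Together the peaks of a gene covered a median of 694 nt in replicate 1 and 902 nt in replicate 2. Expression and depth were not measured here.

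Peaks of 1 gene differed in fold by a median of 2.23 times between the highest and the lowest in replicate 1 and 2.42 times in replicate 2. The ratio was over 3 in 40 and 41 genes. It was largest in PABPN1 in replicate 1 (8.88 times) and in DNM2 in replicate 2 (21.7 times). Every fold was under 2 in both lists in 7 genes, ALDOA, C3, EEF2, F2, FN1, PYCR1 and SEPTIN9. Every fold was over 3 in both lists in 15 genes, ADRA2C, ARID1A, B4GALNT4, CAPN10, CASTOR2, EMILIN1, ITPRIPL2, NAT8L, PALM, PPP1R12C, RAI1, RASL10B, SOWAHC, WTIP and ZNF316. The peak with the highest fold was the same, as a partner, in both lists in 69 of the 109 genes.

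Recurring peaks had similar folds in both lists. When each peak was matched to 1 partner, 306 pairs resulted, and the folds of 80.7% of them (Wilson interval 75.9 to 84.7%) lay within 1.5 times of each other, against 72.6% of all 2128 pairs. Within 2 times lay 94.8%, against 89.2%. The fold was higher in replicate 1 in 40.8% of pairs. Spearman's rho of the 2 folds was 0.89 over the 306 pairs and 0.80 over all pairs, a description only, since pairs share genes and may share the library their folds were set against. Start and end were both identical in 20 pairs (6.54%), for example in JUND (chr19:18280080-18280497, folds of 2.11 in both lists), A2M (chr12:9113474-9115962, folds of 5.63 and 3.40) and PALM (chr19:708953-726177, folds of 7.12 and 9.20).

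**Figure D5:**
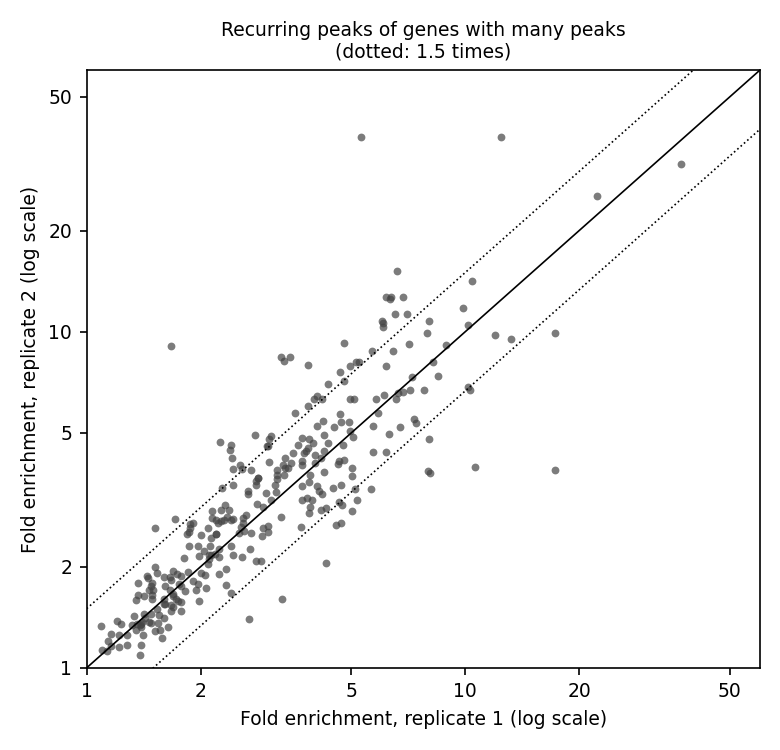
Fold enrichment of the 306 recurring pairs of the 109 genes in replicate 1 (x, log scale) and replicate 2 (y, log scale); the solid line marks equal folds and the dotted lines 1.5 times. Of the pairs, 80.7% lie between the dotted lines, and the point at 5.30 and 38.0 is the 5'-end peak of DNM2.

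A total of 16 pairs differed by more than 2 times. They included the 5'-end peak of DNM2 (5.30 and 38.0), the last peak of AKT1S1, an mTORC1 substrate (1.67 and 9.04), the first peak of CEP170B (17.3 and 3.87) and a peak of FBXL19, an F-box protein that binds CpG islands (12.4 and 38.0). Folds over 15 were found at 5 peaks of replicate 1 and 10 of replicate 2, in 10 genes. Of these, 3 and 7 equalled, within 0.5%, a whole multiple of the commonest fold of their list, which was 7.42 in replicate 1 and 6.33 in replicate 2. These 10 peaks were those of ARID1A (29.7) and DNM2 (38.0), 3 of FBXL19 (37.1, 31.6 and 38.0), both of HDGFL2 (22.3 and 25.3), 2 of NAT8L (50.6 and 31.6) and 1 of ZNF316 (25.3). The commonest fold itself stood at 2 peaks of the 109 genes in replicate 1 and 9 in replicate 2. Higher multiples among folds of 15 or less were not counted, so such folds may also be steps.

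The genes were then grouped by what their proteins do, in groups drawn up after the gene names were known. Transcription factors made up 21 genes: ARID3A, ESRRA, FOXP4, IRX3, JUND, KLF16, MAZ, MYC, NFIX, NR5A1, SLC2A4RG, SOX12, ZBTB7A, ZBTB7B, ZFPM1, ZNF219, ZNF316, ZNF512B, ZNF579, ZNF768 and ZNF865. Of their peaks, 60 of 71 recurred in replicate 1 (84.5%) and 58 of 86 in replicate 2 (67.4%), and the median folds were 3.07 and 3.14. JUND, a subunit of AP-1 with a span of 1.93 kb, had folds of 2.80, 1.97 and 2.11 in replicate 1 and 3.51, 1.78 and 2.11 in replicate 2. ZBTB7A, a repressor with a POZ domain, had 5 peaks in each list, with folds of 8.09 and 3.80 at the 5' end and 7.77 and 6.70 at 83.1% of the span. In ZNF579 the third peak stood out in both lists, with 13.2 and 9.49 against 2.09 and 2.04 at the first. IRX3, a homeobox factor, and ZBTB7B, which directs T cell fate, had their highest fold in replicate 2, 22.1 and 15.8, at a first peak that replicate 1 lacked.

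Chromatin proteins and transcriptional cofactors were another 21 genes, among them ARID1A, ATN1, CBX6, CRTC1, FBRS, FBXL19, HDGFL2, HMGA1, IRF2BP1, IRF2BP2, KDM6B, MLLT6, NACC1, RAI1, RERE, SAMD1, SETD1A, TNRC18 and TRIM28. They had 74 peaks in replicate 1 and 102 in replicate 2, of which 77.0% and 56.9% recurred, with median folds of 3.25 and 3.49. ARID1A, a subunit of the SWI/SNF remodelling complex, had 3 peaks within 1.5% of its span in replicate 1, with folds of 29.7, 6.60 and 6.87. In replicate 2 the first 2 were 1 peak with a fold of 15.2, the third had 6.64, and a further peak at 41.2% had 4.29. SETD1A, a histone H3 lysine methyltransferase, had folds of 8.04 and 10.8 at 82.4% of its span and 3.02 and 2.54 at its other recurring peak. IRF2BP1 and IRF2BP2, paralogous corepressors, both had fully recurring sets of 3. In both genes the first peak had the highest fold, with 7.01 and 11.3 in IRF2BP1 and 4.33 and 4.68 in IRF2BP2.

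The cytoskeleton, cell polarity and membrane traffic accounted for 21 genes: CAPZB, CDC42EP1, CEP170B, DNM2, EPN1, KIF1C, LZTS3, MARCKS, MARK4, MTSS2, OBSL1, PALM, PPP1R12C, RAB5C, SBF1, SCRIB, SEPTIN9, SHANK3, SUN2, TOR4A and WTIP. Of their 75 and 87 peaks 82.7% and 67.8% recurred, with median folds of 3.32 and 3.20. A 5'-end peak was called in 12 of them in replicate 1 and 9 in replicate 2, where the shares over the 109 genes are 31.2% and 26.6%. MARCKS, an actin-binding substrate of protein kinase C, had its strongest peak at the middle of the span, with folds of 6.12 and 6.47 and a −log10 p of 151 and 149. LZTS3 had 3 fully recurring peaks with folds of 6.36, 2.19 and 10.2 in replicate 1 and 12.7, 2.75 and 10.5 in replicate 2. KIF1C, a kinesin motor, had its highest fold at 86.5% of the span in both lists, 4.70 and 3.50.

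Extracellular matrix and secreted proteins and the enzymes that process them numbered 15: A2M, B4GALNT4, BCAM, C3, CHPF, COL18A1, COL27A1, EMILIN1, F2, FN1, FURIN, IGF2, MMP15, NOTUM and SDC1. Recurrence was 80.3% of 61 peaks and 81.4% of 59 peaks, and the median folds were 1.66 and 2.13. F2, which encodes prothrombin, had 3 spliced peaks in each list with folds of 1.33, 1.40 and 1.32 against 1.43, 1.37 and 1.34. FN1, fibronectin, had 1.58, 1.19 and 1.22 against 1.23, 1.04 and 1.15, and its middle peak did not recur. A2M, the plasma protease inhibitor, differed from these at its first peak. That peak, 401 nt from the 5' end, had folds of 5.63 and 3.40 and a −log10 p of 829 and 378, while its other peaks had folds from 1.08 to 1.38.

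IGF2, the insulin-like growth factor, had 5 and 4 peaks in the last part of its span, the strongest at 95.5% with folds of 4.17 and 4.22. Its flanking peaks had 1.98 and 1.60 in replicate 1 and 2.15 and 1.55 in replicate 2, so the profile rose to the same peak in both lists. The read-through gene INS-IGF2 shares its sequence in part. EMILIN1, an elastic fibre glycoprotein, stood at the other end of the group, with folds of 6.85 and 10.4 at its recurring peaks in replicate 1 and 12.7 and 14.2 in replicate 2. MMP15, a membrane-bound metalloprotease, had 3.71, 1.37 and 6.07 against 4.84, 1.65 and 10.6 at its recurring peaks, with the highest at 92.1% of the span in both lists.

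RNA-binding, RNA processing and translation proteins were 8, among them ATXN2L, EEF2, GIGYF1, PABPN1, PRRC2A, SCAF1 and SF1. Recurrence was 74.2% and 65.7%, with median folds of 2.43 and 2.53. PABPN1 had 3 fully recurring peaks whose folds fell and rose along the gene in both lists, 10.3, 1.16 and 2.90 against 6.69, 1.26 and 2.47. SF1, the branch point binding protein of splicing, had its highest fold at the 5' end in both lists, 3.71 and 3.15.

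Transporters and other membrane proteins were 8: ADRA2C, NHERF1, SLC16A3, SLC1A5, SLC7A5, TMEM184A, TMEM259 and TTYH3. Here 93.3% of 30 peaks and 77.1% of 35 recurred, and the median folds were 2.21 and 2.31. ADRA2C, an alpha-2 adrenergic receptor gene with a span of 2.14 kb, had folds that rose from the 5' to the 3' end, 3.14, 3.40 and 6.02 in replicate 1 and 3.49, 3.92 and 10.8 in replicate 2. SLC1A5, a glutamine transporter, had its strongest peak at 6.1% of the span with folds of 3.74 and 4.35, between weaker ones of 1.67 and 1.54 before it and 1.74 and 1.58 at 95.9%. SLC16A3, a lactate transporter, had 3 fully recurring peaks with folds of 2.80, 1.39 and 2.14 against 2.08, 1.32 and 2.80.

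NHERF1, a scaffold of membrane transporters, had 3 recurring peaks with folds of 1.86, 1.77 and 1.35 against 2.31, 1.88 and 1.30. A further peak of replicate 2 (chr17:74748642-74748760, fold 1.92) covered 58 of the 87 bases of the hairpin of miR-3615, which lies at chr17:74748613-74748699 on the same strand. The hairpin is shown because a peak there cannot be assigned to one of the 2 RNAs; capitals mark the bases inside the peak (RefSeq, GRCh38.p14).
MIR3615: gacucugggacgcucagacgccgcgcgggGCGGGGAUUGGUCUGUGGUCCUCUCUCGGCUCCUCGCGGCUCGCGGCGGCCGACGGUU

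Signalling proteins were 7, AKT1S1, CAPN10, CAPN15, CASTOR2, PIK3R2, PPP6R1 and RASL10B, with recurrence of 72.0% and 70.8% and the highest median folds among the groups with a common function, 3.83 and 3.79. None of the 7 had a fully recurring set of peaks, where 29 of all 109 genes had one, and 7 genes are too few to set them apart. PIK3R2, a regulatory subunit of phosphoinositide 3-kinase, had recurring folds of 2.57, 1.71 and 2.40 against 2.14, 2.77 and 2.31, and its strongest peak of replicate 1, 5.14 at the 5' end, was absent from replicate 2. Metabolic enzymes and chaperones were 5, ALDOA, CYB5R3, HYOU1, NAT8L and PYCR1, with recurrence of 93.8% of 16 peaks and 78.9% of 19 and the lowest median folds, 1.62 and 1.71. HYOU1, a chaperone of the endoplasmic reticulum, had 4 peaks in replicate 1 that all recurred, with folds of 2.09, 1.5, 1.69 and 1.14 against 2.60, 1.71, 1.94 and 1.20. PYCR1, an enzyme of proline synthesis, had 1.85, 1.67 and 1.46 against 1.93, 1.48 and 1.71. NAT8L, which makes N-acetylaspartate, departed from this group with folds of 50.6 and 31.6 at 2 peaks of replicate 2 that did not recur. The remaining 3 genes, BTBD2, ITPRIPL2 and SOWAHC, were not placed.

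Gene lists drawn up for the study's cell type placed few of the 109 genes. Of the chromatin regulators with any peak, 5 of 20 were among them (ARID1A, SETD1A and KDM6B are examples), and of the extracellular matrix genes and receptors 4 of 14 (COL18A1, COL27A1, FN1 and SDC1). The background over all genes with a peak is 2.89%. Of hepatocyte secreted proteins the count was 2 of 12 (F2 and C3), and in each of 3 further lists it was 1: KIF1C of 12 large cytoskeletal proteins, EEF2 of 15 translation factors and RAB5C of 11 trafficking genes. It was 0 of 14 SR and hnRNP splicing factors, 0 of 18 genes of MAPK, Hippo and Wnt signalling, 0 of 11 cytosolic ribosomal proteins and 0 of 7 genes of sterol and fatty acid synthesis. The counts are small, and the rule itself set which genes could be counted.

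The 109 genes lay on 17 chromosomes, and 31 of them (28.4%, Wilson interval 20.8 to 37.5%) on chromosome 19, against 10.1% (9.21 to 11.1%) of all 3769 genes. Chromosome 16 held 14 (12.8% against 6.87%), chromosome 17 held 11 (10.1% against 8.28%) and chromosome 22 held 6 (5.50% against 3.45%). Neighbouring genes are not independent. The gene span had a median of 20.6 kb, against 25.1 kb for all genes with a peak; the length of the mRNA was not measured. A span under 5 kb was found in 13 genes, from JUND with 1.93 kb and ADRA2C with 2.14 kb to PYCR1 with 4.91 kb and TOR4A with 4.92 kb. In these 13 genes 38 of 41 peaks recurred in replicate 1 and 39 of 44 in replicate 2, where the shares over the 109 genes were 81.6% and 68.6%. Peaks can fill much of so short a span, which leaves less room for them to miss each other. In JUND they covered 1282 and 1253 nt of 1929 nt. The part of span in recurrence was not tested.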

How the data were processed

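The labels name 2 input and 2 m7G IP samples of HepG2; the lists of both IP samples were used, 1 list per sample, and the inputs were not analysed here. Per the submitters' processing notes, the tools and builds named are STAR and GRCh38, with no version or role. The peak caller and its filters were not given in the sources used here. Per the file headers, each deposited peak has a position, strand, gene name, exon blocks, a p-value, log10 p and log10 FDR scores, and a fold enrichment, a ratio whose libraries the headers do not name. The deposited log10 p score was used to rank peaks, and the deposited ratio to describe them.

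The genes, lists, named genes and alternatives were chosen with earlier results of these data known. Described peak by peak are the 12 genes with the most peaks, the 6 whose peaks recur most and the 6 whose peaks recur least (by the lower share of the lists; ties by more peaks, then by symbol) and the 6 with the widest spread as the mean of the lists, 25 genes in all, of which 24 are described; some genes are not reported here; examples within groups were chosen after their values were seen. Older symbols of 5 genes were updated (MTSS1L, SEPT9, GATSL2, SLC9A3R1 and HDGFRP2 to MTSS2, SEPTIN9, CASTOR2, NHERF1 and HDGFL2) through a RefSeq table of GRCh38.p14, which also gave gene spans. Partners for pairs were assigned one to one by the larger overlap. No test across replicates or genes was run. Overlap and position functions were checked on simulated lists. Wilson intervals are at 95%. Near-identical gene copies cannot be told apart in these lists. The scripts ran on Python 3.11.15 with pandas 2.3.3, numpy 2.4.6 and scipy 1.17.1, and figures were drawn with matplotlib 3.10.9.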

Additional observations from a re-analysis of the deposited data

How the results depend on the processing

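The number of genes was 109, and 428 with 2 or more peaks in each list, 27 with 4 or more and 35 when each list was cut to its 50% of peaks of smallest p; fewer or more genes pass by construction. Counting peaks closer than 100 nt as 1 left 99, all among the 109. Recurrence (mean 75.1%) was 23.7% with 80% reciprocal overlap, and 78.0% with 1 shared base. The share near the 5' end (mean 7.52%) was 12.9% with a window of 500 nt and 13.0% with any base of the peak. The spread (mean 71.4% of the span) was 55.3% with recurring peaks only and 33.9% with single-block peaks only. Folds of pairs lay within 2 times in 94.8% against 80.7% within 1.5 times. With either replicate left out, recurrence ranged from 68.6 to 81.6%, the 5' share from 6.36 to 8.67%, the spread from 67.1 to 75.6% and the fold ratio within a gene from 2.23 to 2.42. No paired analysis was possible because the results come from no test and the inputs have no values here. Without the read depth, peaks too weak to be called cannot be counted.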
